A study of Mus musculus with 12 samples.

Results

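The regions described are 1 kb tiles of the mouse genome that were highly methylated and lay in CpG-rich megabases, away from unmethylated CpG islands. They were chosen by a rule on covered CpGs and on methylation level. The strands of each autosomal CpG were summed, and CpGs with at least 10 reads in all 12 libraries were kept. A tile had to hold 3 to 9 such CpGs and to have a mean level over 80% over the 9 libraries not labelled leukemic. No island tile, defined as at least 20 CpGs under 10%, could lie within 2 tiles, and the 1 Mb bin of the tile had to hold at least 600 kept CpGs. This gave 20205 tiles of the 81162 tiles with at least 3 CpGs, or 24.9%. The high level in the 9 libraries is therefore fixed by the choice and is given as a description only. The 3 leukemic libraries entered the choice through their coverage and not through their level.

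CpG methylation was measured in LSK cells from the bone marrow of C57BL/6 mice of 6 months, a sorted fraction without lineage markers and with Sca1 and cKit that holds blood stem and early progenitor cells. The 4 groups of 3 libraries were double mutants labelled leukemic (Tet2-/- with Nras G12D), nonleukemic double mutants of the same genotype, Tet2 knockout (Tet2-/-) and Nras G12D. Leukemia is read from the prefix L of the titles and the series design, and the descriptions of these libraries add the letters BMT, which the labels do not explain. Tet2 is an enzyme that oxidises methylcytosine, and Nras G12D is an activated form of a signalling GTPase. The design describes the mutations as conditional in the blood-forming tissue and does not name the Cre line. Wild-type libraries were not analysed here. The labels do not say in every case that replicates were separate animals, so the tests cover only the spread from library to library, which may be technical. The sorted fraction could not be checked by markers, because the files hold methylation only.

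In mammalian cells most CpGs outside CpG islands are methylated, and this bulk state is copied to the new strand at each round of DNA replication by the maintenance methyltransferase Dnmt1. CpG-rich megabases are generally rich in genes and replicate early, whereas CpG-poor megabases are often late replicating and bound to the nuclear lamina. In many cancers, the loss of bulk methylation is known for long, late replicating domains. Replication timing and lamina contacts were not measured here, and the megabases are told apart by their covered CpGs alone.

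The CpG-rich megabases were 507 of the 2416 bins with a kept CpG, or 21.0%, and they held 55.4% of the kept CpGs. Each of the 507 bins held at least 1 of the chosen tiles, with a median of 37 and at most 103 per bin. Kept CpGs numbered 893 in the median rich bin, 251 in the median bin of all, and 3511 in the richest. The chosen tiles contained 89579 kept CpGs, which is 9.72% of all of them. Tiles with 3 CpGs were the most frequent, at 7634, and 570 tiles had 9 CpGs. The median distance to the nearest island tile was 33 kb, against 133 kb for tiles of the same kind in CpG-poor megabases. These tiles of bins under 600 CpGs, 21893 in all, were chosen by the same rule on level and islands and serve as the comparison below. Summed over its CpGs, a chosen tile had a median of 339 reads per library, with library medians of 293 to 493. In the CpG-poor tiles the median was 302 reads.

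The chosen tiles were close to full methylation in the 9 libraries that chose them. Their median level was 95.03%, and 10199 tiles, or 50.5%, had a mean over 95%. Another 6616 tiles lay at 90 to 95%, and 3390 tiles at 80 to 90%. The median SD of a tile over these 9 libraries was 3.22 points. At the edge of the rule, 424 tiles just inside, at 80 to 82%, averaged 81.0% in these libraries, and the 399 tiles just outside, at 78 to 80%, averaged 79.0%. The leukemic libraries were at 70.8% inside and 68.7% outside that edge. On either side of the density limit, the 1427 tiles of bins with 600 to under 650 CpGs averaged 87.7% in the leukemic libraries and the 1716 tiles of bins with 550 to under 600 CpGs averaged 87.4%.

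The first question was how the methylated bulk of the CpG-rich megabases stood in each group. Mean methylation over the chosen tiles was 88.9%, 85.1% and 87.7% in the libraries labelled leukemic, 93.7%, 93.5% and 93.7% in the nonleukemic double mutants, 94.4%, 94.5% and 93.9% in Tet2 knockout, and 92.6%, 92.9% and 93.3% in Nras G12D. The group means were 87.2% ± 1.92 in the leukemic, 93.7% ± 0.124 in the nonleukemic double mutants, 94.3% ± 0.326 in Tet2 knockout and 92.9% ± 0.314 in Nras G12D (SD, n = 3 each). No library of any group overlapped with a library of another. All 3 leukemic libraries lay under the 9 others, and the order of the other groups was Tet2 knockout, nonleukemic double mutant, Nras G12D.

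**Figure D1:**
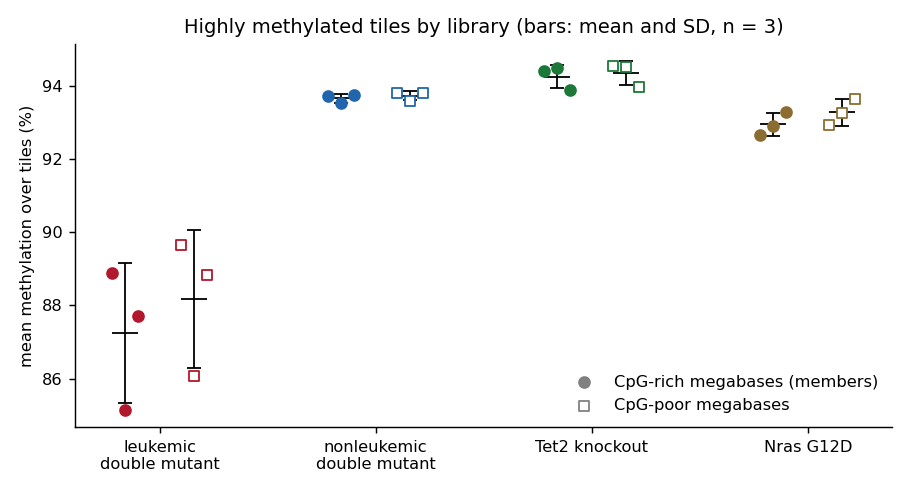
Mean methylation in percent (vertical axis, which does not start at 0) over the 20205 highly methylated tiles of CpG-rich megabases (filled circles) and over the 21893 of CpG-poor megabases (open squares), 1 point per library, with mean and SD of 3 libraries. The leukemic libraries lie at 85.1% to 88.9% in the CpG-rich tiles, under the 9 others, and below their own CpG-poor values.

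The leukemic level was lower over most tiles and not in a few deep losses alone. The median difference of a tile, leukemic minus nonleukemic double mutant, was -4.94 points and the mean difference -6.41 points. The leukemic mean was at least 5 points lower in 10027 tiles (49.6%), at least 10 points lower in 4629 tiles (22.9%) and at least 20 points lower in 984 tiles (4.87%). It was at or above the nonleukemic mean in 2897 tiles, or 14.3%. Tiles over 90% made up 49.9% ± 9.71 of all in the leukemic libraries, against 81.3% ± 0.774 in the nonleukemic double mutants, 82.3% ± 2.46 in Tet2 knockout and 75.9% ± 1.12 in Nras G12D (SD, n = 3 each). In 4328 tiles, 21.4% of all, each of the 3 leukemic libraries was still over 90%. Because a tile had to be high in the other libraries to be chosen, part of a lower leukemic level follows from the choice. With tiles chosen on the Nras G12D and Tet2 knockout libraries alone, which leaves both double mutant groups unused, the mean difference over 20159 tiles was -6.36 points.

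The low tail is set by the rule in the 9 libraries that chose the tiles, so it is first given as a description. Tiles under 80% were 16.3%, 24.4% and 21.3% of the chosen tiles in the leukemic libraries, 2.02%, 2.32% and 2.21% in the nonleukemic double mutants, 1.69%, 4.41% and 2.76% in Tet2 knockout and 4.25%, 3.71% and 5.63% in Nras G12D. Tiles under 50% numbered 180, 268 and 387 in the leukemic libraries and 0 to 8 in each of the others. A leukemic library was under 50% in 654 tiles in all, and all 3 were under 50% in 28. Among the 20159 tiles chosen on the single mutants alone, a choice that used neither double mutant group, tiles under 80% made up 16.3%, 24.2% and 21.2% in the leukemic libraries, against 2.35%, 2.52% and 2.53% in the nonleukemic double mutants. Tiles under 50% numbered 189, 270 and 390 there in the leukemic libraries, against 3, 1 and 6 in the nonleukemic double mutants.

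**Figure D2:**
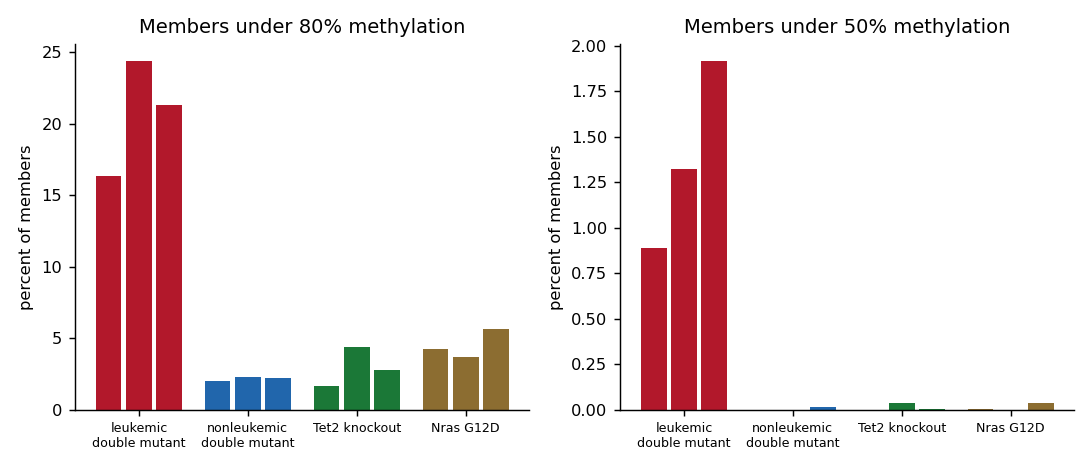
Percent of the chosen tiles with a level under 80% (left) and under 50% (right), 1 bar per library with replicates 1 to 3 from left to right in each group. The leukemic bars stand at 16.3% to 24.4% and at 0.891% to 1.92%, above each of the 9 other libraries, whose low tail is limited by the choice of tiles.

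The 3 leukemic libraries differed among themselves in the kind of loss. Leukemic replicate 2 had the lowest mean and a median tile of 87.6%, against 91.7% and 91.0% in replicates 1 and 3, and it was the lowest of the 3 in 46.7% of the tiles. Leukemic replicate 3 had the most tiles under 50% and the lowest 5th percentile, at 62.4%, against 67.7% in replicate 1 and 65.1% in replicate 2. Replicate 2 thus had the lower middle of the distribution, and replicate 3 the lower end. The median SD of a tile between replicates was 6.02 points in the leukemic group, 2.15 in the nonleukemic double mutants, 2.86 in Tet2 knockout and 2.98 in Nras G12D. Replicates spanned more than 30 points in 1379 tiles of the leukemic group, 7 of the nonleukemic double mutants, 101 of Tet2 knockout and 57 of Nras G12D. The rule limits this spread in the 9 libraries that it uses and not in the leukemic ones. With tiles chosen on the single mutants alone, the median SD was 6.02 points in the leukemic group and 2.15 in the nonleukemic double mutants, and replicates spanned more than 30 points in 1384 and 13 tiles.

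Deep losses were mostly counted in 1 leukemic library alone, and most often in replicate 3. In that library 18.7% of the chosen tiles were at exactly 100%, as were 22.8% in Tet2 knockout replicate 2 and 20.9% in Nras G12D replicate 3, against 2.28% to 9.50% in the other 9 libraries. These 3 libraries stood apart from the rest of their groups in this, and the part of it in the single-library losses was not tested. A leukemic library lay at least 20 points under the lowest of the 9 other libraries in 614, 823 and 1171 of the chosen tiles for replicates 1, 2 and 3. In 1739 tiles this held for exactly 1 leukemic library, in 295 tiles for 2 and in 93 tiles for all 3. At a gap of 40 points the counts were 303, 54 and 16 tiles. Among pairs, replicates 2 and 3 shared 165 of these tiles at 20 points without replicate 1, replicates 1 and 2 shared 91, and replicates 1 and 3 shared 39. Measured against the 8 other libraries not labelled leukemic, the count at 20 points was 80 in Tet2 knockout replicate 2, 41 in Nras G12D replicate 3 and 0 to 10 in the remaining 7 libraries, but the rule limits these counts. In CpG-poor tiles, exactly 1 leukemic library was low at 20 points in 8.80% of tiles and all 3 in 0.274%, against 8.61% and 0.460% of the CpG-rich tiles.

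Leukemic and nonleukemic double mutants were then compared tile by tile in a quasi-binomial model, fitted to the methylated and total reads of all 81162 tiles in the 12 libraries. Calls needed an adjusted p under 0.05 together with at least 10 points between the group means. Of the 20205 chosen tiles, 1246 (6.17%) were called lower in the leukemic libraries and 1 was called higher. Over all tiles, 3.87% were called lower and 0.115% higher, but all tiles include the unmethylated islands, which have little methylation to lose. Among the CpG-poor tiles, chosen at the same level, 4.04% were called lower. The leukemic and nonleukemic libraries did not overlap, with the leukemic ones lower, in 27.5% of the chosen tiles, 21.0% of the CpG-poor tiles and 19.9% of all tiles. The called falls had a median of -19.0 points, with quartiles of -26.2 and -14.4, and 243 were of 30 points or more. They had a median of 393 reads per library, against 336 reads in the tiles not called lower, and their median level over the 9 libraries was 93.6%, against 95.1%.

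The number of calls depended on the test and on the libraries. With at least 20 reads per CpG in every library, 6.18% of the chosen, 4.27% of the CpG-poor and 3.65% of all tiles were called lower. The counts that follow stand without the share of all tiles in the same fit. They show how far the calls moved, and not whether the higher share in the chosen tiles was kept. The fit shares 1 estimate of spread over the 4 groups, although the leukemic replicates varied more than the others. In limma on log ratios of reads 14 chosen tiles were called lower, and 51 when the spread came from the leukemic and nonleukemic libraries alone. Leaving out nonleukemic replicate 1, 2 or 3 gave 207, 172 and 235 calls, and leaving out leukemic replicate 1 gave 2197. Reads on the Y chromosome marked 3 libraries (Tet2 knockout replicates 1 and 2 and nonleukemic replicate 1), and leaving these out gave 64 calls, with 2 nonleukemic libraries and 1 Tet2 knockout library left in the fit.

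Against the single mutants, the leukemic libraries were lower by means of -7.00 points (Tet2 knockout) and -5.69 points (Nras G12D). Against Tet2 knockout, 2372 of the chosen tiles (11.7%) were called lower and 2 higher, where the shares of all tiles were 7.5% and 0.158% and 8.60% of the CpG-poor tiles were called lower. Against Nras G12D, 649 (3.21%) were called lower and 0 higher, where the shares of all tiles were 1.96% and 0.0887% and 2.17% of the CpG-poor tiles were called lower. Before adjustment, the quasi-binomial F test put 145 of the 20205 chosen tiles higher than in Nras G12D at p under 0.05. Of all 81162 tiles it put 2535 higher. The counts of lower tiles were 4986 of the chosen and 13312 of all. These counts are a description, and the rule chose tiles of high level, which have little room to rise. Limma called 0 chosen tiles higher than in Nras G12D. The groups did not overlap, with the leukemic lower, in 27.7% of the chosen tiles against Tet2 knockout (19.2% of all tiles) and in 21.4% against Nras G12D (14.6% of all tiles). The 3 comparisons share the leukemic libraries, so they are not independent of each other. With at least 20 reads per CpG in every library, 12.1% of the chosen and 7.19% of all tiles were called lower against Tet2 knockout. Against Nras G12D these shares were 3.3% and 1.92%. The counts in the other fits below stand without the share of all tiles, so they describe only how far the calls moved. In limma, 487 chosen tiles were called lower against Tet2 knockout and 0 against Nras G12D, and fits on the 2 groups alone called 15 and 0. Leaving out Tet2 knockout replicate 1, 2 or 3 gave 1441, 1044 and 1265 calls lower against that group. Against Nras G12D the calls numbered 141, 75 and 98 without its replicates 1, 2 and 3, 335, 336 and 310 without nonleukemic replicates 1, 2 and 3, and 1440 and 1130 without leukemic replicates 1 and 3. Leaving out the 3 libraries marked by Y chromosome reads gave 69 calls against Nras G12D and 2 against Tet2 knockout, where the comparison then rests on 1 Tet2 knockout library that is assumed to vary like the other groups.

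The CpG-rich tiles were compared with the CpG-poor ones within each library, so that the sequencing and conversion of a library act on both sides. CpG-rich minus CpG-poor was -0.751, -0.919 and -1.12 points in the leukemic libraries, -0.0644, -0.0602 and -0.0702 in the nonleukemic double mutants, -0.144, -0.0384 and -0.0926 in Tet2 knockout and -0.266, -0.341 and -0.378 in Nras G12D. All 12 libraries were lower in the CpG-rich tiles, and the 3 leukemic libraries had the widest gaps, with no overlap with the 9 others. The level of these 9 libraries chose both kinds of tile, which limits their gaps and not the leukemic ones. The difference of leukemic minus nonleukemic was -6.41 points in the CpG-rich and -5.55 points in the CpG-poor tiles. No p is given for these means over chosen tiles. Within classes of like level the gap had the same sign. Among tiles with a mean of 80 to 85% in the 9 libraries, leukemic minus nonleukemic was -9.96 points in CpG-rich and -7.73 points in CpG-poor megabases. Among tiles over 95% it was -4.85 points in CpG-rich and -4.61 points in CpG-poor megabases.

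Along CpG density, the difference grew in the CpG-poor bins and was level in the CpG-rich ones. Leukemic minus nonleukemic was -4.19 points in bins under 100 CpGs, -5.14 at 100 to under 200, -5.79 at 200 to under 400 and -6.10 at 400 to under 600. In the CpG-rich bins it was -6.39 points at 600 to under 800 CpGs, -6.54 at 800 to under 1000, -6.37 at 1000 to under 1500 and -6.38 at 1500 or more. Each leukemic library followed this course on its own level. Replicate 1 differed from the nonleukemic mean by -2.93 points in the sparsest bins and -4.68 points in the densest, replicate 2 by -6.05 and -8.40 points, and replicate 3 by -3.59 and -6.08 points. Over the 489 rich bins with at least 15 chosen tiles, the correlation between the CpG count of a bin and its difference was 0.00321 (Pearson) and -0.0406 (Spearman), given as a description over bins that share the same libraries. The number of kept CpGs of a bin depends on MspI sites and coverage as well as on the genome.

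**Figure D3:**
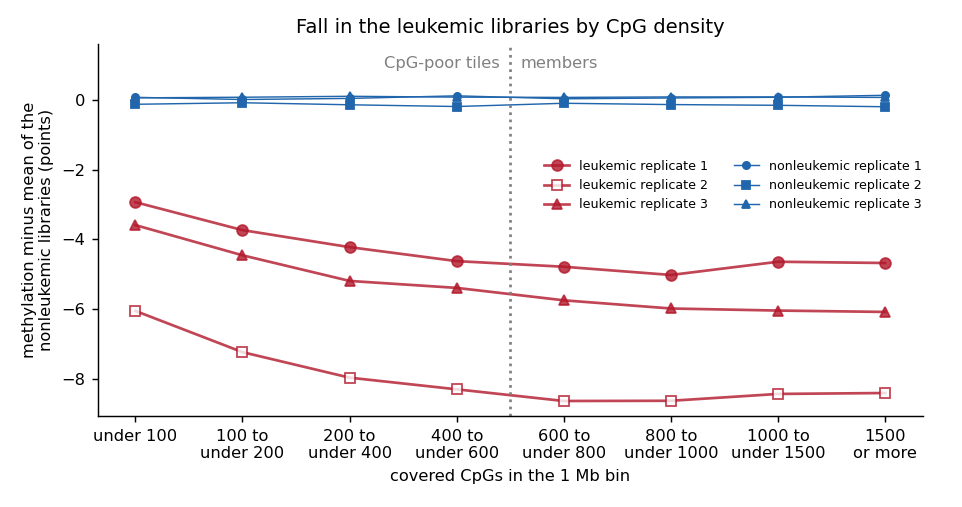
Methylation of each double mutant library minus the mean of the 3 nonleukemic libraries, in percentage points, over highly methylated tiles grouped by the number of covered CpGs in their 1 Mb bin. The dotted line parts CpG-poor tiles (left) from the chosen tiles (right), where the 3 leukemic lines run level between -4.64 and -8.63 points.

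The lower leukemic level was found on each autosome and in each bin with at least 15 chosen tiles. In all 489 bins with at least 15 chosen tiles the mean leukemic level was lower than the nonleukemic one, by a median of -6.33 points and with 80% of the bins between -8.28 and -4.42 points. In 469 of these bins all 3 leukemic libraries lay under all 9 others. The bins and autosomes share the same libraries, so these counts are a description and not independent of each other. No such count is given for CpG-poor bins, whose tiles also differed by a mean of -5.55 points. On each of the 19 autosomes the 3 leukemic means lay under the 9 others, and the difference to the nonleukemic group ran from -6.77 points on chromosome 11 to -5.81 points on chromosome 16. Called falls made up 4.47% (chromosome 12) to 7.71% (chromosome 13) of the chosen tiles of a chromosome. They occurred in 410 of the 489 bins. Over all chromosomes, 6.17% of the chosen and 3.87% of all tiles were called lower. The share of all tiles is not given by chromosome or by bin.

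**Figure D4:**
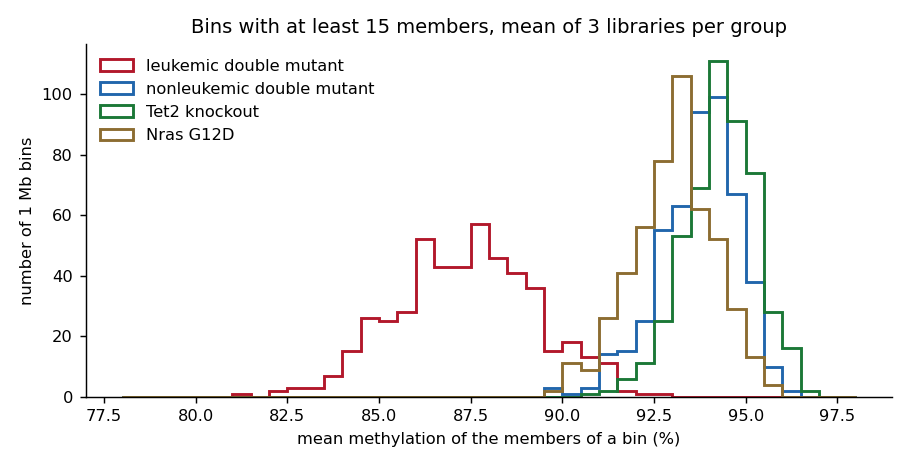
Number of 1 Mb bins (vertical axis) by the mean methylation of their chosen tiles in percent, for the 489 bins with at least 15 of them, as the mean of the 3 libraries of each group. The whole leukemic distribution is shifted to lower levels, with a median difference of -6.33 points from the nonleukemic double mutants.

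The bins at the ends of this range were as follows. They were picked as the extremes of 489 bins with few chosen tiles each, where a few calls move the share of called falls. On chromosome 7 from 116000000 to 116999999 (18 chosen tiles) the tiles averaged 89.6%, 77.8% and 80.7% in leukemic and 94.3%, 94.2% and 94.0% in nonleukemic libraries, the largest difference at -11.5 points. On chromosome 7 from 13000000 to 13999999 (18 tiles) they averaged 92.4%, 90.5% and 93.5% in leukemic and 93.8%, 95.2% and 93.8% in nonleukemic libraries, the smallest difference at -2.13 points. The highest shares of called falls were 5 of 28 tiles (17.9%) on chromosome 2 from 151000000 to 151999999, 15 of 86 (17.4%) on chromosome 8 from 122000000 to 122999999, and 6 of 36 (16.7%) on chromosome 7 from 105000000 to 105999999, which tied with 4 of 24 on chromosome 11 from 84000000 to 84999999. In the chromosome 8 bin the leukemic libraries were at 86.3%, 81.99% and 84.7%, against 94.5%, 93.9% and 94.3% in the nonleukemic double mutants.

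Distance from islands made little difference among the chosen tiles. Leukemic minus nonleukemic was -6.34 points in the 864 tiles 3 to 4 kb from an island tile, -6.33 at 5 to 9 kb, -6.25 at 10 to 19 kb, -6.36 at 20 to 49 kb and -6.58 in the 7390 tiles 50 kb or more away. The difference was smaller in tiles with more CpGs, at -6.97 points with 3 CpGs, -6.55 with 4, -6.04 with 5 and -5.95 to -5.13 with 6 to 9. Called falls made up 5.20% of the tiles with 3 CpGs, which had a median of 238 reads, and 7.89% of those with 9 CpGs, which had 812 reads. The level over the 9 libraries, by which the difference was shown above, is part of the rule and is described only.

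Within called falls the loss covered most CpGs of the tile and was uneven in size. The 1246 called tiles held 5732 kept CpGs, of which 92.1% had a lower leukemic than nonleukemic mean and 67.2% were lower by at least 10 points. In the tiles not called lower, these shares were 65.4% and 23.5%. The calls rest on the same reads, so this contrast is largely fixed by the call and is a description. CpGs close together can also share reads. In 338 of the called tiles (27.1%) each CpG was lower by at least 10 points. The median range of the differences between CpGs of a called tile was 30.5 points. Directly adjacent chosen tiles were more often called together than chosen tiles at large, without a test. Of the neighbours at 1 kb of a called tile, 16.9% were called too, against 6.17% of the chosen tiles, and at up to 20 kb the share was 7.80%. Adjacent tiles can share MspI fragments.

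The largest called falls, among tiles of 5 CpGs or more whose leukemic and nonleukemic libraries did not overlap, are extreme cases of these losses. Of all 1246 called falls, with a median of -19.0 points, 50 were of 50 points or more. The falls named here were taken from the 499 called tiles of 5 CpGs or more without overlap. The largest was on chromosome 8 from 125922000 to 125922999 (mm9), with 5 CpGs, 25 kb from the nearest island tile. It stood at 23.8%, 21.2% and 22.0% in the leukemic libraries, 94.7%, 93.2% and 97.6% in the nonleukemic double mutants, 87.3%, 96.2% and 91.7% in Tet2 knockout and 89.9%, 87.9% and 100% in Nras G12D. The SD of the leukemic libraries was 1.33 points there, against 6.36 or more in the other 7 large falls. The difference of -72.8 points had an adjusted p of 3.9e-05 in the quasi-binomial model, on 132 to 648 reads per library, and one of 0.0714 in limma. Its CpGs at 125922331, 125922374 and 125922380 were at 11.5%, 7.41% and 12.7% in the leukemic group, and those at 125922505 and 125922531 at 52.7% and 57.5%, while the nonleukemic means were 90.6% to 100%. The loss was thus deeper at the first 3 CpGs of the tile.

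On chromosome 19 from 6284000 to 6284999 the leukemic libraries stood at 51.2%, 12.1% and 0%, against 90.5%, 93.2% and 92.9% in the nonleukemic double mutants (quasi-binomial model, adjusted p = 0.00765). Tet2 knockout was at 95.7% ± 0.277 and Nras G12D at 89.6% ± 4.31 (SD, n = 3 each). All 5 of its CpGs, between 6284582 and 6284720, differed by -62.2 to -76.1 points. The loss was complete in leukemic replicate 3 and partial in replicate 1. Without nonleukemic replicate 2 its adjusted p was 0.0544.

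On chromosome 4 from 133384000 to 133384999 the leukemic libraries stood at 33.3%, 28.3% and 0.746%, against 90%, 86.5% and 88.8% in the nonleukemic double mutants (adjusted p = 0.00119 in the quasi-binomial model). Its CpG at 133384838 was at 57.5% in the leukemic and 87.8% in the nonleukemic group, and was at 62.7% in Tet2 knockout. The other 4 CpGs of the tile were at 10.9% to 18.9% in the leukemic group. Here too replicate 3 was the lowest.

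On chromosome 3 from 94850000 to 94850999 the order of the leukemic libraries was turned round, with 5.09%, 13.9% and 54.1% in replicates 1, 2 and 3, against 86.5%, 87.8% and 88.9% in the nonleukemic double mutants. Its adjusted p was 0.007 in the quasi-binomial model and 0.0508 without nonleukemic replicate 2. On chromosome 15 from 27800000 to 27800999 the leukemic libraries were at 46.5%, 33.8% and 25%, against 98.4%, 97.4% and 91.7% in the nonleukemic double mutants (quasi-binomial model, adjusted p = 0.000671). This tile lies 154 kb from the nearest island tile. The single mutants were at 96.7% ± 3.26 (Tet2 knockout) and 96.5% ± 3.02 (Nras G12D; SD, n = 3 each), so all 9 other libraries were high there.

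On chromosome 6 from 88070000 to 88070999 the leukemic libraries were at 38.5%, 27.1% and 27.8%, against 91.7%, 90.7% and 84.6% in the nonleukemic double mutants (quasi-binomial model, adjusted p = 0.000129). Tet2 knockout was at 96.7% ± 0.278 and Nras G12D at 82.1% ± 4.69 there (SD, n = 3 each), and these single mutants did not overlap. Of the 8 largest falls, this tile alone was also called in limma (adjusted p = 0.0293), where the other 7 had an adjusted p of 0.053 to 0.113. In a fit on the leukemic and nonleukemic libraries alone, the tiles on chromosomes 19 and 3 and the next one, on chromosome 5, were not called, with quasi-binomial adjusted p of 0.0975, 0.0858 and 0.0527. When the 3 libraries marked by Y chromosome reads were left out, the tiles on chromosomes 19, 4 and 3 were not called, with adjusted p of 0.107, 0.0531 and 0.0906 in the quasi-binomial model. On chromosome 5 from 138702000 to 138702999 the leukemic libraries were at 49.2%, 19.4% and 35.4%, against 87.3%, 96.0% and 92.4% (nonleukemic; adjusted p = 0.000989 in the quasi-binomial model). On chromosome 17 from 45654000 to 45654999 they were at 25.9%, 26.9% and 44.1%, against 88.8%, 91.7% and 84.1% (nonleukemic; adjusted p = 0.000212 in the quasi-binomial model). Its CpG at 45654758 was the lowest of its 7 CpGs in every group, at 11.7% in the leukemic, 55.4% in the nonleukemic double mutants, 75.7% in Tet2 knockout and 22.9% in Nras G12D. In none of these 8 tiles did a comparison between groups not labelled leukemic pass the threshold.

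**Figure D5:**
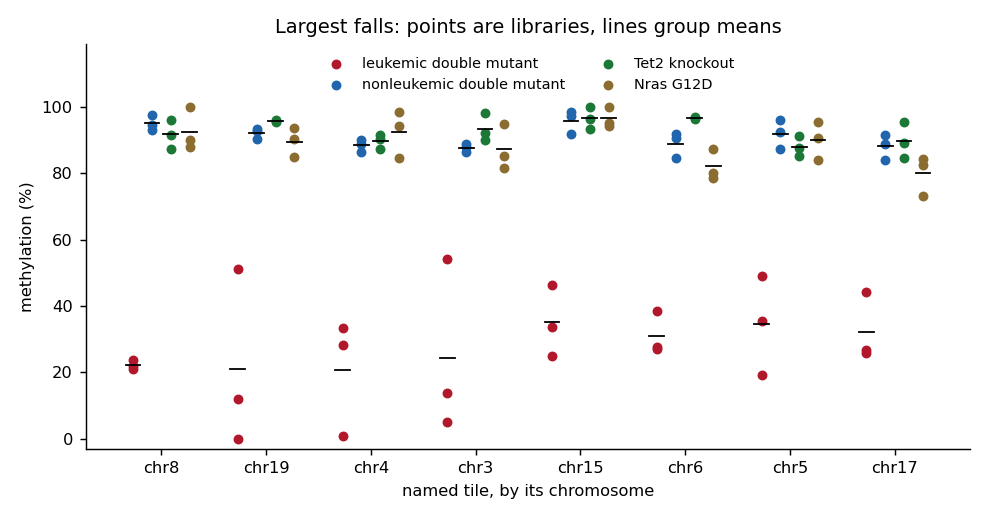
Methylation in percent (vertical axis) of the 8 chosen tiles with the largest called fall, by their chromosome, with 1 point per library and a line at each group mean. The leukemic points lie between 0% and 54.1%, under all points of the 9 other libraries.

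The only chosen tile called higher in the leukemic than in the nonleukemic double mutants was on chromosome 5 from 66600000 to 66600999. It stood at 100%, 96.2% and 100% in the leukemic libraries, against 73.0%, 71.7% and 80.9% in the nonleukemic double mutants (quasi-binomial model, adjusted p = 0.0171; limma, 0.0960). Without nonleukemic replicate 1 or 2 its adjusted p was 0.0682 and 0.0787. The difference lay at 1 of its 4 CpGs, at 66600781, which was at 95.6% in the leukemic, 13.3% in the nonleukemic double mutants, 57.4% in Tet2 knockout and 92.3% in Nras G12D. The other 3 CpGs were at 96.3% or more in the leukemic and nonleukemic groups. The tile is named here after its values were seen.

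The widest gaps of a single leukemic library were in replicate 3, one of the 3 libraries with many tiles at exactly 100%. On chromosome 5 from 147980000 to 147980999 the leukemic libraries were at 83.2%, 94.0% and 0.840%, against 91.3%, 83.0% and 86.5% in the nonleukemic double mutants. On chromosome 9 from 54621000 to 54621999 the leukemic libraries were at 96.7%, 89.7% and 3.39%, against 94.7%, 94.0% and 98.2% (nonleukemic). On chromosome 4 from 150511000 to 150511999 they were at 90.6%, 87.1% and 5.26%, against 97.6%, 92.7% and 93.5% (nonleukemic). In each of the 3 tiles replicates 1 and 2 were within the range of, or close to, the other libraries, and the gap between replicate 3 and the lowest of the other 11 libraries was 81.8 to 82.1 points. None was called, with adjusted p of 0.384, 0.282 and 0.166 in the quasi-binomial model. Each has 3 CpGs.

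The groups not labelled leukemic differed by about 1 point over the chosen tiles. The nonleukemic double mutant minus Tet2 knockout was -0.590 points, the nonleukemic double mutant minus Nras G12D 0.720 points and Tet2 knockout minus Nras G12D 1.31 points. The libraries of each pair did not overlap, but these libraries chose the tiles, so the values are a description. No chosen tile was called in these comparisons by the quasi-binomial model or by limma, where 0%, 0.00246% and 0% of all tiles were called in the quasi-binomial model. At an unadjusted p under 0.05 that model gave 397 chosen tiles lower and 120 higher for the nonleukemic double mutant against Tet2 knockout. It gave 121 lower and 261 higher for it against Nras G12D, and 134 lower and 890 higher for Tet2 knockout against Nras G12D. For the 20205 chosen tiles these counts stand beside those of all 81162 tiles. Over all tiles they were 1933 lower and 797 higher, 627 and 1685, and 773 and 4079, in the same order. They are not adjusted for the number of tiles and are a description. Tet2 knockout was above Nras G12D without overlap in 10.1% of the chosen tiles and 8.94% of all tiles. The nonleukemic double mutant was above Nras G12D in this way in 7.30% of the chosen and 8.45% of all tiles, and below Tet2 knockout in 8.96% of the chosen and 7.07% of all tiles. Tile by tile, the order of the averages (Tet2 knockout, nonleukemic double mutant, Nras G12D) was found in 29.7% of the chosen tiles and 27.9% of all tiles. Each of these shares differed by under 2 points from that of all tiles.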

How the data were processed

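Methylation was measured by reduced representation bisulfite sequencing: MspI digestion, fragments of 150 to 400 bp and single reads of 50 bp, per the labels' protocols. The submitters' processing notes list Bismark, with no version given, and the mm9 build (NCBIM37). The deposited tables give coverage, a count of reads per CpG strand of at least 10, and the percent of reads with C and with T. Summed over CpG strands, this coverage came to 96300485 to 199736369 per library, where a read over several CpGs counts at each of them. Reads with C and with T were taken as coverage times percent, to whole reads, and the 2 strands summed, giving 921697 autosomal CpGs with a median of 70 to 147 reads. PCR copies count as reads, and a read over several CpGs of a tile counts once per CpG, so precision is overstated. A tile's level is its methylated reads over all its reads.

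Tiles were tested with a quasi-binomial model on the group over all 12 libraries (8 residual degrees of freedom). The dispersion was moderated as in limma's squeezeVar and floored at 1, with F tests, Benjamini-Hochberg adjustment over all tiles and calls at 0.05 and 10 points. Named tiles are the 8 largest called falls, and up to 4 rises, among tiles of 5 CpGs or more whose leukemic and nonleukemic libraries did not overlap; called tiles between the other groups; the 3 widest ranges over the 9 libraries; and the 3 tiles with the widest gap below the other 11 libraries. No rise met this. Named bins are the 3 with the highest share of called falls. Tiles, lists and tests were chosen with earlier results of these data known. The gene table at hand is of GRCm38.p6, another assembly, so no genes were assigned and no sequence is printed. The software was R 4.3.3 with limma 3.58.1 and Python 3.11.15 with pandas 2.3.3, NumPy 2.4.6 and SciPy 1.17.1.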

Additional observations from a re-analysis of the deposited data

How the results depend on the processing

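Over all alternatives the mean differences of the leukemic libraries kept their direction: -7.24 to -5.36 points from the nonleukemic double mutant, -7.83 to -5.95 from Tet2 knockout and -6.52 to -4.64 from Nras G12D. The chosen minus CpG-poor tiles, in the fall of leukemic against nonleukemic, was -0.865 points, -1.07 with megabases of at least 400 CpGs and -0.634 with tiles over 90%. Leaving out the 3 libraries marked by Y chromosome reads, which leaves a single Tet2 knockout library (replicate 3), the nonleukemic double mutant minus Tet2 knockout was -0.251 points and Tet2 knockout minus Nras G12D 0.938 points.

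The counts of calls moved with the test and the spread. The cause was not tested except where the construction gives it (fewer libraries or reads, another size). Counts here and in the next paragraph are of chosen tiles and stand without the share of all tiles in the same setting. A change in them can therefore not be told from the same change over all tiles. Tiles called lower, leukemic against nonleukemic, numbered 14 in limma, 51 with only the 2 groups compared in the fit, 567 at 20 points, 828 at equal coverage by thinning, 64 without the Y-marked libraries and 2092 without the 3 libraries with many single-library flips (leukemic replicate 3, Tet2 knockout replicate 2 and Nras G12D replicate 3). Against Tet2 knockout they numbered 487 in limma, 15 with only the 2 groups, 871 at 20 points and 2 without the Y-marked libraries. Against Nras G12D they numbered 0 in limma and with only the 2 groups, 368 at 20 points, 69 without the Y-marked libraries and 284 without those with flips. With each replicate left out in turn, these counts ran from 172 to 2197, 1044 to 3408 and 75 to 1440.

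Tiles called higher against the nonleukemic group numbered 0 at a coverage minimum of 20, with megabases of at least 800 CpGs, with tiles over 90%, in limma, with only the 2 groups and without the Y-marked libraries, 3 with megabases of at least 400 CpGs, and 2 at 5 points and without the libraries with flips. Against Tet2 knockout they numbered 1 at a coverage minimum of 20, over 90%, with the replicate block and without the libraries with flips, 4 at 400 CpGs, 6 at 5 points, and 0 in limma, with only the 2 groups, at 20 points, with thinning and without the Y-marked libraries. Against Nras G12D they numbered 1 at a coverage minimum of 20, at 400 CpGs, with the block, at 5 points and with thinning. With each replicate left out they ran from 0 to 8, 0 to 11 and 0 to 9.

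No pairing by replicate number was seen. Deviations from the group means correlated at -0.0152 to 0.0196 in the 18 same-numbered pairs and -0.0255 to 0.0287 in the 36 others. These values cannot exclude a batch or origin shared under a number. With the replicate block no other count moved by over 1.5 times. All 17 alternatives and the 12 fits without 1 library called 0 chosen tiles among the groups not labelled leukemic.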

Other observations

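The chosen tiles with the widest range over the 9 libraries not labelled leukemic each held a library far under the others of its group. On chromosome 6 from 72371000 to 72371999, Nras G12D replicate 3 was at 17.5%, against 95.6% and 96.6% in the other Nras G12D libraries, and leukemic replicate 3 was at 32.7%, against 97.7% and 91.0% in the other leukemic libraries. On chromosome 18 from 61960000 to 61960999, Tet2 knockout replicate 3 was at 22.2%, against 94.6% and 100% in the other Tet2 knockout libraries. On chromosome 15 from 74630000 to 74630999, nonleukemic replicate 3 was at 28.2%, against 89.7% and 93.0% in the other nonleukemic libraries, and leukemic replicates 1 and 2 were at 20% and 53.8%, against 97.0% in replicate 3. Each of these tiles has 3 CpGs.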
